A study of Homo sapiens with 6 samples.

Results

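The mRNA levels of 10 alpha- and beta-tubulin genes are described here in the established human colon cancer line SW620, which was grown from a metastasis in a lymph node. The genes were chosen by name: TUBA1A, TUBA1B, TUBA1C and TUBA4A of the alpha family, and TUBB, TUBB2A, TUBB2B, TUBB3, TUBB4B and TUBB6 of the beta family. Earlier results of these data were known when these genes were chosen. Each had 1 entry among the 60835 gene names of the deposited count table, and all 10 passed the filter on low counts. The cells carried either a control short hairpin vector, labelled shControl with genotype WT (3 libraries), or a vector labelled as a stable DNM1 knockdown, shDNM1 (3 libraries). The study asked which genes change when DNM1, the gene of the membrane-pinching GTPase dynamin 1, is lowered. No label gives a treatment besides the vectors, and both groups were grown in the same serum-containing high-glucose medium.

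Microtubules are hollow polymers of alpha- and beta-tubulin heterodimers, and they form the mitotic spindle, the tracks of kinesin and dynein motors and the core of cilia. Human cells build them from several isotypes, encoded by separate genes, whose proteins are nearly alike except in the acidic tail at the carboxyl end, where most modifying enzymes and many motors act. Dividing epithelial cells rely mainly on a few broadly expressed isotypes, whereas TUBA1A, TUBB2A, TUBB2B and TUBB3 are best known from neurons. The amount of tubulin mRNA is also held in check by the protein itself: when free dimers accumulate, TTC5 recognises the first residues of the nascent chain and the mRNA is degraded during translation.

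Those first residues are written in the first 12 bases of each coding sequence, shown in capitals below with the bases that follow, 5′ to 3′, as an example of what the 10 genes share. Sequences are from GENCODE release 29 transcripts, on GRCh38. The alpha genes start with codons for methionine, arginine, glutamate and cysteine, and the beta genes with codons for methionine, arginine, glutamate and isoleucine. The first 30 coding bases of TUBA1B and TUBA1C are identical to those of TUBA1A.
TUBA1A: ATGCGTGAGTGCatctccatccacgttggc
TUBA4A: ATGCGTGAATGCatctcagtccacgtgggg
TUBB4B: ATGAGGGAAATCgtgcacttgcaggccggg
TUBB6: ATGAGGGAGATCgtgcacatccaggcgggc

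The last 63 bases of the coding sequence, which encode the isotype-specific tail, are shown next for the beta genes, because most of these isotypes differ there. Capitals mark the last codon before the stop codon. TUBB2A and TUBB2B differ at 2 of these 63 bases, 1 in the last codon, which encodes alanine in both, and 1 in the stop codon, so their encoded tails are the same.
TUBB: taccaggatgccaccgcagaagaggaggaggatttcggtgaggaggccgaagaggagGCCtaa
TUBB4B: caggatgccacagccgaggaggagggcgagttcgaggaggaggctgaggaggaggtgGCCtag
TUBB2A: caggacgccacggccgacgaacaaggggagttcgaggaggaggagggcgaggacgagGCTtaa
TUBB2B: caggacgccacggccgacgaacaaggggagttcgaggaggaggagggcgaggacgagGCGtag
TUBB3: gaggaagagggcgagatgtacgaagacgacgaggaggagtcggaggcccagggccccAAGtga
TUBB6: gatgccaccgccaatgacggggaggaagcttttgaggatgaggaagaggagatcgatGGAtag

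The genes lie on 6 chromosomes, by the GRCh38 coordinates of the deposited table. On chromosome 12, TUBA1B (49127782 to 49131397) and TUBA1A (49184686 to 49189080) are on the minus strand, and TUBA1C (49188736 to 49274600) is on the plus strand, its deposited span overlapping the start of TUBA1A. TUBA4A is on chromosome 2 (219249710 to 219277902, minus). On chromosome 6, TUBB2A (3153497 to 3157544, minus) and TUBB2B (3223324 to 3231730, minus) are neighbours, and TUBB (30717435 to 30725538, plus) lies far from them. TUBB3 is on chromosome 16 (89921392 to 89938761, plus), TUBB4B on chromosome 9 (137241287 to 137243707, plus) and TUBB6 on chromosome 18 (12307669 to 12344320, plus). All are protein-coding, with 4 exons in the transcript used for the sequences and a coding length of 1335 to 1356 bases.

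How far reads can be assigned to a single isotype was examined from the same transcripts. Between beta genes the coding sequences were 81.3% to 98.1% identical (median 86.6%, 15 pairs), between alpha genes 85.0% to 97.3% (median 91.3%, 6 pairs), and between an alpha and a beta gene 56.6% to 60.5%. TUBB2A and TUBB2B were the closest pair at 98.1%, followed by TUBA1B and TUBA1C at 97.3% and TUBA1A and TUBA1B at 97.2%. Windows of 100 bases were then searched in every transcript of other genes. No window of TUBB6 occurred elsewhere, and 1.8% of those of TUBA4A, 2.9% of TUBB4B and 5.1% of TUBB did. The share was 11.5% for TUBA1C, 18.3% for TUBA1A, 37.2% for TUBA1B, 46.2% for TUBB2B and 56.4% for TUBB2A. In TUBB3 it was 89.0%, all of it found in the annotated gene AC092143.1, which overlaps TUBB3 on the same strand, while 5.1% was shared with TUBB2A. AC092143.1 had 0 counts in all 6 libraries. In the alpha genes and in TUBB2A and TUBB2B the shared windows lay in or across the edge of the coding sequence, and 0% of the windows wholly outside it were shared. The levels of TUBA1A, TUBA1B, TUBA1C, TUBB2A, TUBB2B and TUBB3 are therefore uncertain to the extent that the counting discarded or split shared reads, which is not given in the sources used here.

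**Figure D1:**
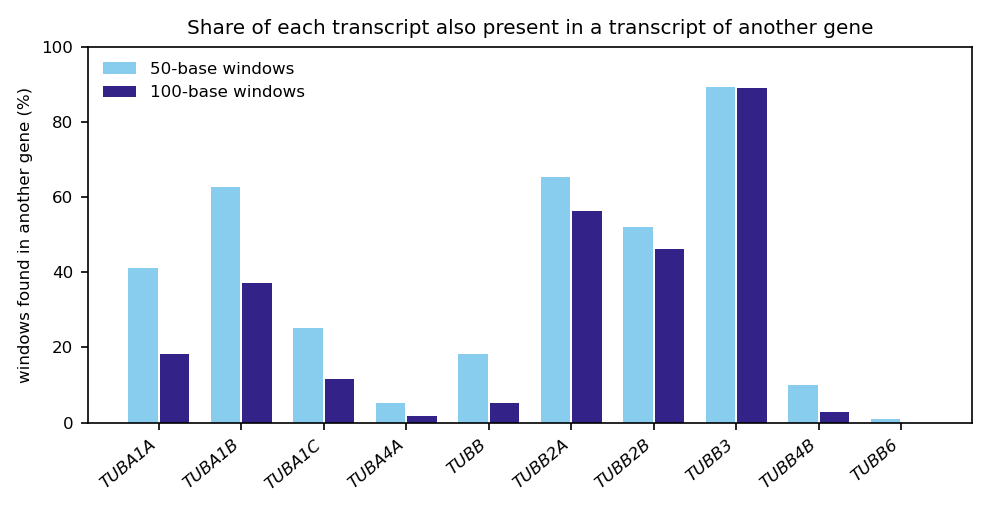
Percentage of the 50-base and 100-base windows of each isotype's transcript (vertical axis) that also occur in an annotated transcript of another gene, for the 10 genes (horizontal axis). TUBB6 has no shared window of 100 bases, whereas TUBB3 shares 89.0%, TUBB2A 56.4% and TUBB2B 46.2%.

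The libraries held 12844534 to 13537519 counts. By the labels, shControl was batch_A and shDNM1 was batch_B, so the vector and the batch cannot be told apart throughout. Nothing in the labels states separate cultures within a group, so the spread behind the p-values is that among libraries and may be technical. DNM1 itself stood at 127, 127 and 133 CPM (counts per 1000000 counts, scaled by the TMM method) in shControl and at 126, 97.8 and 125 CPM in shDNM1 replicates 1, 2 and 3. The groups did not overlap, but the difference did not pass the test (log2 fold change -0.15, SE 0.083, adjusted p = 0.189), and the second group is therefore called the libraries labelled shDNM1. Of 12 colon epithelial markers, summed at 8559 to 9353 CPM in shControl and 9919 to 11234 CPM in shDNM1, the villus actin-bundling gene VIL1 and the keratin gene KRT8 were abundant, CDX1 had 0 counts and KRT20 stayed at or below 1.33 CPM. Most of that sum was KRT8, at 5523 to 6051 and 6536 to 7313 CPM. EPCAM was at 408 to 431 and 361 to 378 CPM, and CDX2 at 6.4 to 9.28 and 18.5 to 21.4 CPM. CDH17, GPA33 and LGALS4 stayed at or below 1.99 CPM. Fibroblast and endothelial markers (11 genes, COL3A1 and KDR at 0) summed to 51.0 to 58.9 and 61.1 to 79.5 CPM. LUM was the largest member in every library, at 20.5 CPM or more in shControl and 27.1 to 41.1 CPM in shDNM1. PDGFRB was at 1.33 to 2.85 and 4.74 to 5.02 CPM, and COL1A1, PECAM1 and VWF were also present. Of 5 tested, LUM, PDGFRB and VWF were called higher and 2 did not pass. Blood cell markers (8 genes, CD3E, HBB and HBA1 at 0) summed to 4.12 to 4.98 and 1.90 to 2.55 CPM. Most of that sum was LYZ, at 3.39 to 4.22 and 1.29 to 2.15 CPM, which was called lower. The part of these marker differences in the tubulin results was not tested.

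Of the 10 isotypes, 6 were higher in the libraries labelled shDNM1 at an adjusted p under 0.05, 0 were lower and 4 did not pass. Over all 16744 genes tested, 15.6% were called higher and 16.2% lower, or 31.9% in either direction. The 6 were TUBB3, TUBB6, TUBB2A, TUBB2B, TUBA1A and TUBA4A, and the 4 that did not pass were TUBB, TUBB4B, TUBA1B and TUBA1C, which had the highest control levels. For 5 of the 10 the groups did not overlap, all with higher values in shDNM1, against 21.2% of all genes tested in that direction and 44.3% in either. The median log2 fold change was 0.38 for the 10 isotypes and -0.01 for all genes tested. At an unadjusted p under 0.05 the isotypes numbered the same 6, and DESeq2 also called 6 higher and 0 lower.

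TUBB6, a beta isotype that is present in many tissues at modest levels, had the smallest p of the 10. It stood at 33.7, 34.1 and 36.6 CPM in shControl replicates 1, 2 and 3 and at 66.2, 67.5 and 69.2 CPM in those labelled shDNM1. The replicates of each group lay close together and the groups were far apart. Its mean was 1.94 times that of the controls (log2 fold change 0.96, SE 0.074, 95% interval 0.80 to 1.12, edgeR quasi-likelihood adjusted p = 2.52e-08).

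TUBB3, the class III isotype that marks neurons and appears in many carcinomas, had the largest fold change and the lowest level. It was counted 20, 54 and 48 times in shControl and 106, 87 and 111 times in shDNM1, or 1.53, 3.98 and 3.70 CPM against 8.23, 6.94 and 8.44 CPM. Control replicate 1 was the lowest library, and the groups did not overlap. TUBB3 was 2.55-fold higher (log2 fold change 1.35, SE 0.25, 95% interval 0.83 to 1.88, adjusted p = 0.000397). MC1R, the melanocortin receptor gene just upstream on the same strand, did not pass the test (log2 fold change 0.17, SE 0.22, adjusted p = 0.598). Of 16 neuronal markers, 6 (NEFL, NEFM, INA, ELAVL4, STMN2 and UCHL1) had 0 counts in every library, which allows up to 0.234 CPM in the smallest one and covers counting error only. The summed level of the list was 149 to 166 CPM in shControl and 132 to 136 CPM in shDNM1. Most of that sum was the vesicle calcium sensor gene SYT1, at 138 to 153 and 113 to 115 CPM, whereas the growth cone gene GAP43 was at 5.16 to 5.97 and 10.6 to 12.5 CPM.

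The class II pair rose as well. TUBB2A had 6.29, 6.85 and 5.55 CPM in shControl and 10.8, 10.8 and 12.5 CPM in shDNM1, without overlap. Its log2 fold change was 0.87, or 1.82-fold (SE 0.15, adjusted p = 0.000246). TUBB2B had 9.51, 11.3 and 9.25 CPM in shControl and 10.9, 17.3 and 17.5 CPM in shDNM1, where replicate 1 lay within the control range. Its log2 fold change was 0.60 (SE 0.17, adjusted p = 0.0104), a call that was lost without shDNM1 replicate 3 (adjusted p = 0.0684) and in limma fits to log2(TPM + 1) and log2(TPM + 0.1) (adjusted p = 0.087 and 0.0848). Because reads of this pair can be shared, their sum is also given: 15.8, 18.2 and 14.8 CPM in shControl and 21.7, 28.1 and 29.9 CPM in shDNM1, 1.63 times the control mean, with no overlap and no test.

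Among the alpha isotypes, TUBA1A, which is needed for neuronal migration, stood at 25.6, 30.0 and 29.7 CPM in shControl and at 39.7, 41.1 and 40.2 CPM in shDNM1. Every shDNM1 library exceeded every control. Its log2 fold change was 0.50, or 1.42-fold (SE 0.087, adjusted p = 0.000214). TUBA4A, an alpha isotype known from platelets and muscle, had 124, 139 and 126 CPM in shControl and 144, 168 and 153 CPM in shDNM1. The highest control lay only just below the lowest shDNM1 library, and the fold was 1.19 (log2 fold change 0.25, SE 0.071, adjusted p = 0.0112). TUBA4A no longer passed when shControl replicate 1, shControl replicate 3 or shDNM1 replicate 2 was left out (adjusted p = 0.0585, 0.0689 and 0.0505).

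The 4 isotypes that did not pass varied more among the shDNM1 libraries than among the controls. TUBB, the class I isotype of most dividing cells, had 761, 810 and 812 CPM in shControl and 675, 842 and 741 CPM in shDNM1, with a log2 fold change of -0.08 (SE 0.072, 95% interval -0.23 to 0.07, adjusted p = 0.448). TUBB4B, a broadly expressed isotype that also serves in cilia, had 499, 529 and 509 CPM against 426, 505 and 481 CPM (log2 fold change -0.12, 95% interval -0.26 to 0.02, adjusted p = 0.177). In both genes shDNM1 replicate 2 was the highest of its group and replicate 1 the lowest. TUBA1B, usually a main alpha isotype of dividing cells, had 169, 206 and 216 CPM against 148, 209 and 156 CPM (log2 fold change -0.21, 95% interval -0.43 to 0.02, adjusted p = 0.154). TUBA1C, likewise broadly expressed, had 157, 165 and 162 CPM against 143, 188 and 156 CPM (log2 fold change 0.01, 95% interval -0.16 to 0.18, adjusted p = 0.946). The groups overlapped in all 4, with shDNM1 replicate 2 the highest of its group in each. Without that library TUBA1B and TUBB4B passed as lower, with log2 fold changes of -0.38 and -0.18 (adjusted p = 0.0027 and 0.0495), and TUBB had -0.17 (adjusted p = 0.0525) and TUBA1C -0.11 (adjusted p = 0.239). Without shDNM1 replicate 1 the log2 fold changes moved the other way, to -0.11 for TUBA1B, -0.05 for TUBB4B, -0.003 for TUBB and 0.10 for TUBA1C, and none of the 4 passed (adjusted p = 0.382, 0.481, 0.974 and 0.286). DNM1 itself was lowest in shDNM1 replicate 2, at 97.8 CPM against 126 and 125 CPM in replicates 1 and 3. Its log2 fold change was -0.0373 without replicate 2 (adjusted p = 0.718) and -0.2049 without replicate 1 (adjusted p = 0.0399). TUBA1A, TUBA1B and TUBA1C together summed to 352, 400 and 408 CPM in shControl and to 330, 438 and 352 CPM in shDNM1, which overlapped.

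**Figure D2:**
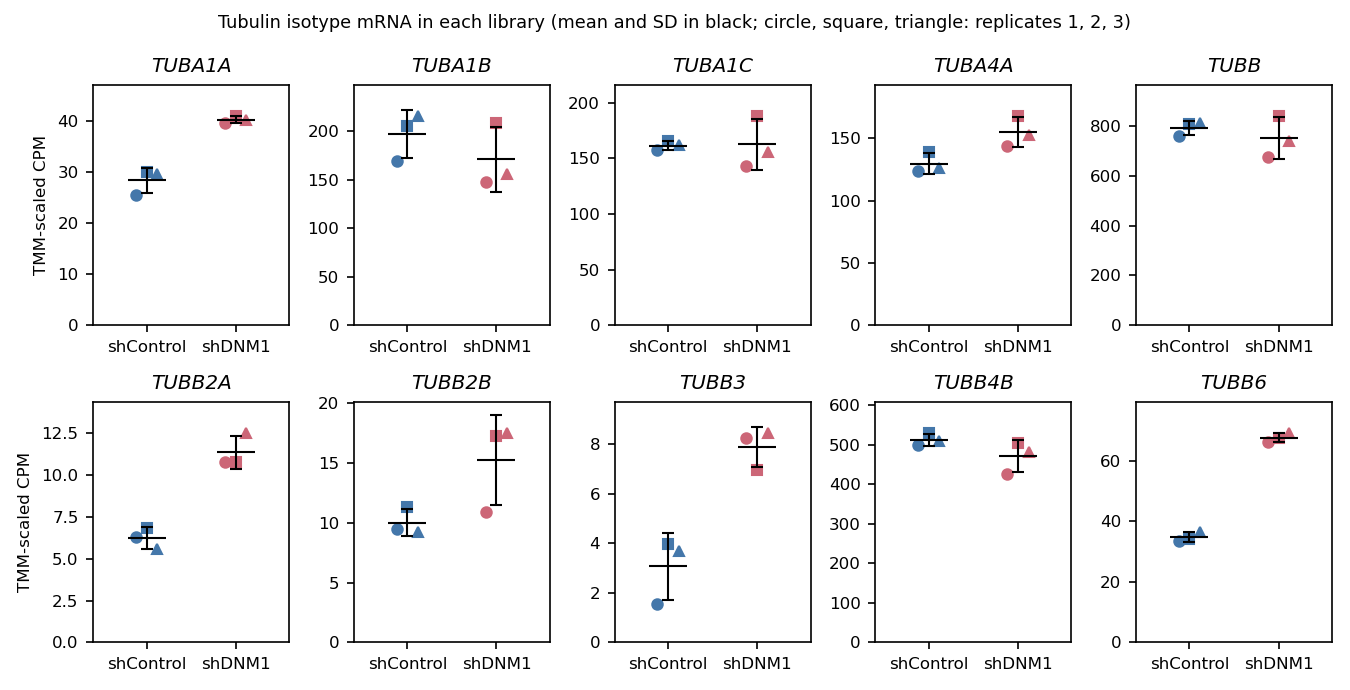
TMM-scaled CPM of each tubulin isotype (vertical axes, from 0) in the 3 shControl (blue) and 3 shDNM1 (red) libraries, with the mean and SD in black. TUBB6, TUBA1A, TUBA4A, TUBB2A and TUBB3 have no overlap between groups, whereas TUBB, TUBB4B, TUBA1B, TUBA1C and TUBB2B do.

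Levels of different genes were compared with the deposited TPM values (transcripts per 1000000), which take gene length into account. Whether they allow for reads shared between isotypes is not given in the sources used here. The order of levels therefore carries the uncertainty of read assignment described above. In shControl, TUBB4B was the most abundant isotype at 767 ± 13.7 TPM and TUBB next at 709 ± 18.1 TPM (SD, n = 3 for all values in this paragraph). TUBA1B and TUBA1C followed at 188 ± 21.7 and 174 ± 1.99 TPM, with overlapping libraries, and then TUBA4A at 158 ± 8.03 TPM. TUBB6 (49.1 ± 2.19 TPM) and TUBA1A (32.9 ± 2.45 TPM) formed a middle range. TUBB2B (8.27 ± 0.852 TPM) and TUBB2A (7.32 ± 0.730 TPM) overlapped each other, and TUBB3 was last at 1.84 ± 0.787 TPM. In the libraries labelled shDNM1 the upper ranks overlapped: TUBB4B (676 ± 42.2 TPM) with TUBB (644 ± 52.2 TPM), and TUBA4A (181 ± 8.80 TPM), TUBA1C (168 ± 18.9 TPM) and TUBA1B (156 ± 25.2 TPM) with their neighbours in rank. TUBA4A thus had the highest alpha mean there, where it had the third in shControl. TUBB6 reached 91.6 ± 3.29 TPM, TUBA1A 44.9 ± 0.609 TPM and TUBB3 4.56 ± 0.597 TPM.

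**Figure D3:**
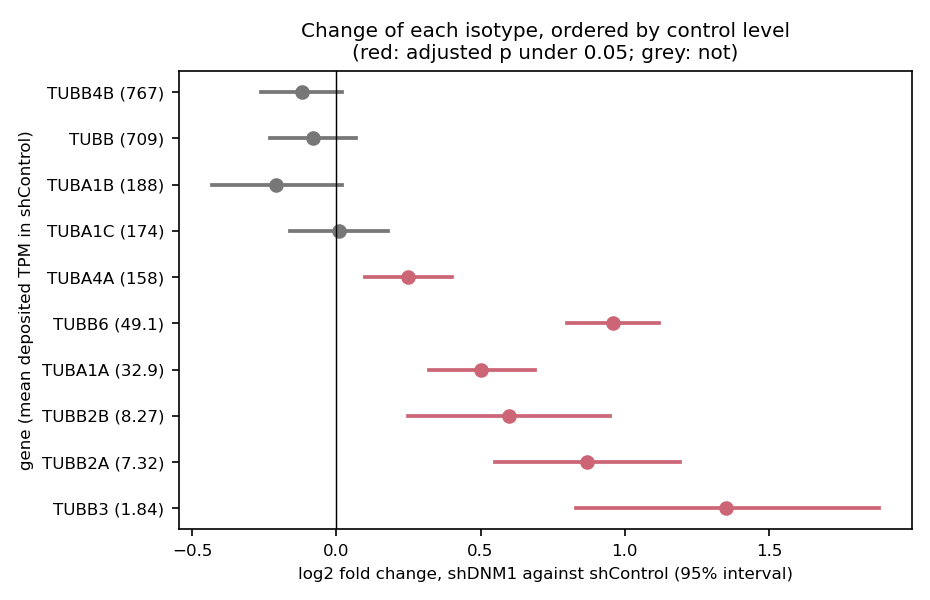
Log2 fold change of each isotype (horizontal axis, point and 95% interval), ordered from the highest mean deposited TPM in shControl (top) to the lowest. The 4 most abundant isotypes have intervals that include 0, and the 6 below them are called higher.

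Summed over the 4 alpha isotypes, the deposited TPM averaged 553 ± 29.5 in the controls and 550 ± 51.8 in shDNM1 (SD, n = 3), with overlapping libraries. Over the 6 beta isotypes it was 1543 ± 27.9 and 1441 ± 92.2 TPM, also overlapping. Over all genes tested the median log2 fold change was -0.0667 on the log2(TPM + 1) scale and -0.0133 in the main fit. TPM sums thus sit on a slightly lower scale in shDNM1. The composition of each sum differed more clearly, and it is given as a description with no test. TUBB6 made up 3.19%, 3.03% and 3.32% of the beta sum in shControl and 6.86%, 5.82% and 6.45% in shDNM1. TUBB4B went from 49.7% ± 0.632 to 46.9% ± 0.648 of the beta sum, without overlap, and TUBB from 46.0% ± 0.578 to 44.7% ± 1.18, with overlap (SD, n = 3). TUBB2A, TUBB2B and TUBB3 each stayed under 1% of the beta sum in every library, at 0.894%, 0.828% and 0.318% on average in shDNM1. In the alpha sum, TUBA1B made up 31.5%, 33.9% and 36.1% in shControl and 27.3%, 30.4% and 27.0% in shDNM1. TUBA4A had 28.7% ± 1.40 against 33.0% ± 1.52 and TUBA1A 5.95% ± 0.130 against 8.23% ± 0.848, both without overlap, and TUBA1C 31.5% ± 1.36 against 30.5% ± 0.619, with overlap. These shares carry the same uncertainty of read assignment as the counts.

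**Figure D4:**
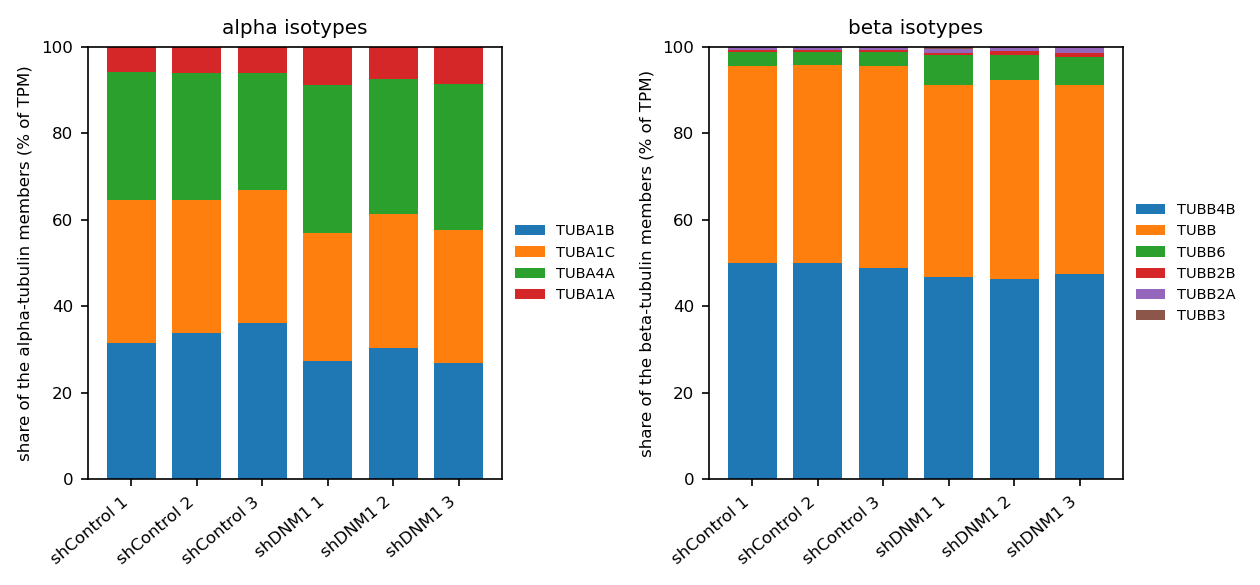
Share of each isotype in the summed deposited TPM (vertical axis, %) of the 4 alpha (left) and 6 beta (right) genes, in each library (horizontal axis). The TUBB6 band is wider in all 3 shDNM1 libraries (5.82% to 6.86%) than in shControl (3.03% to 3.32%), and the TUBA1B band is narrower.

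Promoter windows around RefSeq starts (GRCh38.p14, most of each window lying upstream of the start) were matched for all 10 genes, 15 windows in all because some genes have several starts. The GC box GGGCGG was present on either strand in 9 of the 15 windows, against 45.0% of 35116 windows of all genes, the CCAAT box CCAAT in 9 of 15 against 34.6%, and TATAAA in 1 of 15 against 11.5%. The last was TUBB2A. The TUBA1C windows chr12:49227676-49227975 and chr12:49227769-49228068 overlap and hold the same CCAAT box, which is counted in each. One of the TUBB6 windows and that of TUBB4B are shown, for the isotype with the smallest p and the most abundant isotype in shControl, with every match on either strand in capitals. The TUBB6 window shown (chr18:12307991-12308290, plus strand) held 6 GC boxes and 1 CCAAT box, while the window of the other TUBB6 start, on the same strand, held 0 of either. The TUBB4B window (chr9:137241037-137241336, plus strand) held 0 GC boxes and 3 CCAAT boxes. A match describes the letters and does not show that a factor binds there.
TUBB6: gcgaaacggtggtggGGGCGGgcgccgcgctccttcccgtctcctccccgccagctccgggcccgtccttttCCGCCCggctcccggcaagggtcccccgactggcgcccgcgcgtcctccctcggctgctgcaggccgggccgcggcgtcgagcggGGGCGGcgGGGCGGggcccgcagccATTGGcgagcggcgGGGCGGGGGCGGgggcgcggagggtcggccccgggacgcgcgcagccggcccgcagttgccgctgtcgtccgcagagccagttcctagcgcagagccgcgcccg
TUBB4B: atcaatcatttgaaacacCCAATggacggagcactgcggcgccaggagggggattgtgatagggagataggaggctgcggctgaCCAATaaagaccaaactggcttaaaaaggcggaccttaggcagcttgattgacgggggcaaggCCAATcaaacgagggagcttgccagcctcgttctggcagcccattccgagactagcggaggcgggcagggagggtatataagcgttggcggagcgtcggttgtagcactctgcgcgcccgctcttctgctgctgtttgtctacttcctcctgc

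Genes next to or overlapping the 10 isotypes were read from the deposited coordinates to see whether neighbours moved with them. Of 20 such genes tested, 3 were called higher, 5 lower and 12 did not pass, beside 15.6% called higher and 16.2% called lower over all genes. TUBB6 overlaps AFG3L2, a mitochondrial protease gene on the opposite strand, which was 1.16-fold higher (adjusted p = 0.0345). On its right, PRELID3A fell by 0.84 on the log2 scale (SE 0.14, adjusted p = 0.000203). MDC1, a DNA damage mediator gene that overlaps TUBB on the opposite strand, was at 0.629 of control (adjusted p = 2.19e-06), and BPHL, which overlaps TUBB2A on the opposite strand, at 0.640 of control (adjusted p = 0.0107). PSMG4, which overlaps TUBB2B on the opposite strand, was 1.2-fold higher (adjusted p = 0.035). Overlap here is that of the deposited gene spans, and overlap of exons was not examined. Whether counting used strand is not given in the sources used here, so reads from stretches that such pairs share may not be told apart.

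Of 13 other tubulin genes 7 were tested, with a median log2 fold change of -0.15. Of these, 1 was called higher, 0 lower and 6 did not pass, where 31.9% of all genes tested were called in either direction. The alpha and beta genes tested here, TUBB1, TUBA3D and TUBA8, had log2 fold changes of -0.70, -0.65 and -0.48. None of them passed (adjusted p = 0.0759, 0.188 and 0.439), and each stayed at or below 3.31 CPM. The called gene was TUBG2, a gamma-tubulin, with 17.4, 16.8 and 15.5 CPM in shControl and 23.1, 18.5 and 20.1 CPM in shDNM1 (log2 fold change 0.31, SE 0.12, adjusted p = 0.045). It no longer passed when shControl replicate 1, 2 or 3 was left out (0.0655, 0.0897 and 0.178 as adjusted p), nor when shDNM1 replicate 1 or 3 was (0.153 and 0.0745), nor with DESeq2 (0.0597). Without shDNM1 replicate 2 or 3, 1 gene of this list was lower. TUBA3C and TUBB8 had 0 counts in every library. Tubulin pseudogenes filled 51 further entries, of which 34 had 0 counts in all libraries and 5 had at least 10 in each, with at most 109 counts in a library.

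Microtubules start from the gamma-tubulin ring complex. Of its 12 genes 2 were higher, 2 lower and 8 did not pass (median log2 fold change -0.03), a share called near the 31.9% over all genes. MZT2A, a small ring component, had 65.5 to 68.5 CPM in shControl and 52.0 to 58.4 CPM in shDNM1 (log2 fold change -0.26, SE 0.073, adjusted p = 0.0103). TUBGCP2, a core component, was 1.13-fold higher (adjusted p = 0.0344). It no longer passed when shControl replicate 1, 2 or 3 was left out (0.133, 0.054 and 0.121 as adjusted p), nor when shDNM1 replicate 2 or 3 was (0.0731 and 0.105). The genes of this list called higher numbered 0 without shControl replicate 1, 2 or 3 or shDNM1 replicate 3 and 1 without shDNM1 replicate 2. Those called lower numbered 1 when any library other than shDNM1 replicate 3 was left out.

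Newly made tubulin is folded by prefoldin, the CCT chaperonin and the tubulin cofactors. Of 21 such genes 7 were higher, 2 lower and 12 did not pass (median log2 fold change 0.10), beside 15.6% higher and 16.2% lower over all genes. PFDN2, a prefoldin subunit gene, had 57.3, 59.4 and 58.7 CPM in shControl and 84.8, 89.0 and 85.2 CPM in shDNM1, 1.48-fold higher (log2 fold change 0.56, SE 0.067). CCT2, a chaperonin subunit gene, had 434 to 440 CPM in shControl and 511 to 573 CPM in shDNM1 (log2 fold change 0.32, SE 0.061, adjusted p = 0.000512). TBCD, the cofactor that handles beta-tubulin, fell by 0.33 on the log2 scale (SE 0.072, adjusted p = 0.00185). The higher genes numbered 4 without shControl replicate 1 and 3 without shControl replicate 3, and 1 was lower without shControl replicate 1 or shDNM1 replicate 3.

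The genes of tubulin mRNA autoregulation did not pass the test. TTC5 had 20.5, 22.2 and 19.1 CPM in shControl and 17.0, 17.5 and 18.4 CPM in shDNM1, without overlap (log2 fold change -0.23, SE 0.11, adjusted p = 0.119). SCAPER, which links TTC5 to the deadenylase complex, had a log2 fold change of 0.35 (adjusted p = 0.0591), and the deadenylase genes CNOT1 and CNOT11 had 0.06 and 0.05. Of these 4 genes 1 was called higher without shControl replicate 3 or shDNM1 replicate 3, and also with RLE size factors or with no filter.

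Of the enzymes that modify tubulin tails or add and remove acetyl groups on the polymer, 21 were tested: 2 were higher, 7 lower and 12 did not pass (median log2 fold change -0.04), beside 15.6% and 16.2% over all genes. AGBL5, a tail deglutamylase gene, had 38.3, 36.7 and 39.5 CPM in shControl and 23.0, 26.5 and 27.6 CPM in shDNM1 (log2 fold change -0.57, SE 0.091, adjusted p = 0.000106). TPGS2, a subunit gene of a polyglutamylase, was at 0.677 of control and TTLL7, a polyglutamylase gene that acts on beta tails, at 0.715 (adjusted p = 0.00023 and 0.00141). HDAC6, the main tubulin deacetylase gene, named after its values were seen, fell by 0.27 on the log2 scale (adjusted p = 0.00375). Also called lower, and likewise named after their values were seen, were VASH1, VASH2 and MATCAP1. Their log2 fold changes were -1.19, -0.46 and -0.2 (adjusted p = 0.00328, 0.027 and 0.0489), with VASH1 at or below 3.83 CPM. The 2 genes called higher, also named after their values were seen, were SIRT2, another tubulin deacetylase gene (log2 fold change 0.39, adjusted p = 0.00664), and TTLL12, of the tubulin tyrosine ligase-like family (log2 fold change 0.29, adjusted p = 0.00152). Leaving out shControl replicate 3 left 1 gene called higher. The genes called lower numbered 5 without shControl replicate 1, 2 or 3 or shDNM1 replicate 3. They numbered 6 without shDNM1 replicate 2 and 8 without shDNM1 replicate 1.

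Of 24 tested genes of microtubule-associated proteins 7 were higher, 3 lower and 14 did not pass (median log2 fold change 0.11), beside 15.6% and 16.2% over all genes. MAP7D1 and MAP7D2, of the family that recruits kinesin-1, were 1.43-fold and 1.40-fold higher, MAP7D2 with 75.9 to 79.3 CPM in shControl and 107 to 111 CPM in shDNM1. STMN1, which sequesters free dimers and favours disassembly, had 381, 386 and 390 CPM in shControl and 282, 326 and 286 CPM in shDNM1 (log2 fold change -0.37, SE 0.065, adjusted p = 0.000238). MAP4, the main microtubule stabiliser of non-neuronal cells, named after its values were seen, was at 0.786 of control (adjusted p = 0.000524). When each library was left out, 5 to 9 genes of this list were called higher and 3 to 4 lower. Among 11 tested severing enzymes and depolymerases 1 was higher and 10 did not pass, beside 31.9% called over all genes. It was KATNAL1, a katanin-like severing enzyme gene, with 14.7, 14.5 and 15.5 CPM in shControl and 27.1, 25.4 and 24.9 CPM in shDNM1, 1.73-fold higher (log2 fold change 0.79, SE 0.10). Without shDNM1 replicate 1 or 2, with library size alone or on either log2(TPM) scale, 1 gene of this list was lower.

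**Figure D5:**
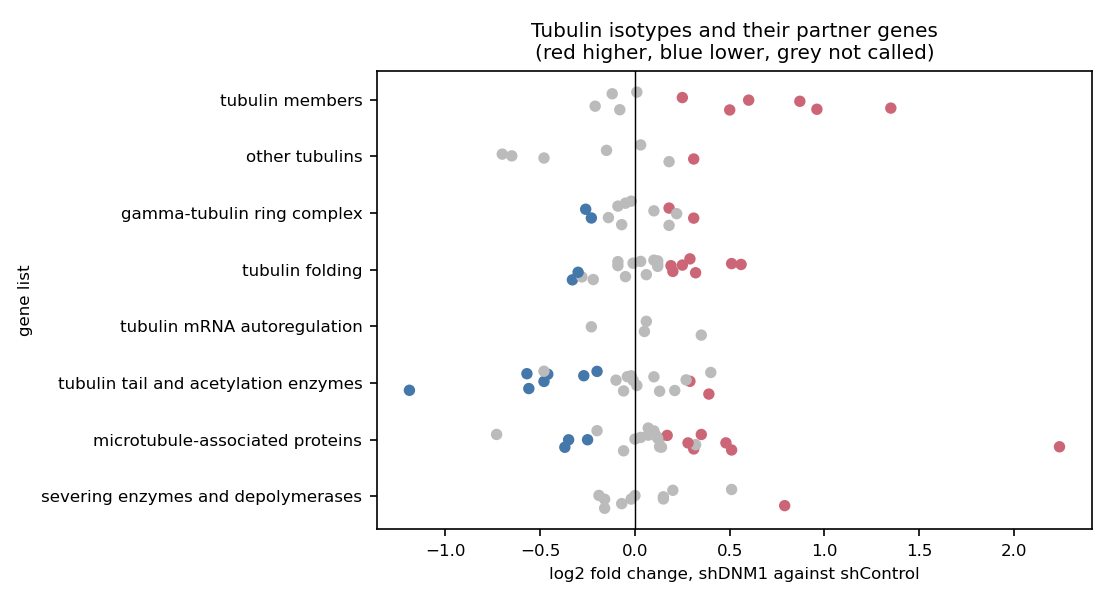
Log2 fold change (horizontal axis) of each tested gene, by gene list (vertical axis), with points spread vertically within a list for legibility. The tubulin isotypes hold 6 genes called higher and 0 lower, the folding genes 7 and 2, the microtubule-associated proteins 7 and 3, and the enzymes of tubulin tails and acetylation 2 and 7, with no test between lists.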

How the data were processed

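RNA of 6 SW620 libraries (3 shControl, 3 shDNM1, grouped by sample title) was sequenced. Per the labels' protocols, RNA came from an RNeasy extraction and was prepared with the SMARTER mRNA-seq chemistry. The authors deposited raw counts of reads for each gene, on GRCh38 per the submitters' processing notes. Aligner, counter and read length: not given in the sources used here. The deposited TPM values have the unit score here, since only the unique gene names sum to 1000000 in a column. Of 62710 lines in each file, 2328 shared 453 names with identical values and were collapsed, leaving 60835 names. Unused per-sample columns numbered 0.

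The counts were fitted in R 4.3.3 by edgeR 4.0.16 (filterByExpr defaults, TMM, glmQLFit and glmQLFTest, two-sided). Adjusted p values come from this fit (Benjamini-Hochberg, 16744 genes, threshold 0.05) unless another setting is named. The test was also run on simulated counts with the same relative spread for every gene and no batch difference. That setting is simpler than these data, and its outcome is not reported here. Intervals are at the 95% level and cover these libraries' spread only. Alternatives were DESeq2 1.42.0, limma 3.58.1 (voom, and log2(TPM + 1) or log2(TPM + 0.1)), other scalings and filters, a robust fit, a threshold of 0.01, a block for the replicate number, and each library left out in turn.

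Sequence windows and identities were computed with Biopython 1.88 in Python 3.11.15 from the principal GENCODE 29 transcript of each gene. The tail sequences of the alpha genes are not reported here. The members and the gene lists were chosen with earlier results of these data known. From each list up to 3 called genes with the smallest p and no overlap between groups were named, besides the 10 isotypes, DNM1 and neighbouring genes. Named outside this rule were the marker genes, TUBB1, TUBA3D, TUBA8, the autoregulation genes, and HDAC6, SIRT2, TTLL12, MAP4, VASH1, VASH2 and MATCAP1.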

Additional observations from a re-analysis of the deposited data

How the results depend on the processing

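TUBA1A, TUBB2A, TUBB3 and TUBB6 were called higher under all 18 alternatives, with log2 fold changes of 0.44 to 0.54, 0.73 to 0.94, 1.00 to 1.58 and 0.89 to 0.99. TUBB2B and TUBA4A each lost their call under 4 of 18, with adjusted p values up to 0.087 and 0.0689. The isotypes called higher numbered 5 on the log2(TPM + 1) and log2(TPM + 0.1) scales, 4 at a threshold of 0.01 and 5 to 6 when each library was left out. The isotypes called lower numbered 1 with scaling by library size alone (TUBB4B), with no filter (TUBA1B), with log2(TPM + 1) and log2(TPM + 0.1) (TUBB4B) and with the replicate block (TUBA1B), and 0 to 2 when each library was left out. TUBA1C changed sign with the upper quartile (-0.0075), library size alone (-0.028), limma-voom (-0.00038), log2(TPM + 1) (-0.058) and log2(TPM + 0.1) (-0.058), and ran from -0.11 to 0.10 when each library was left out. The cause was not tested.

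Over all genes 5337 were called, 3503 at a threshold of 0.01 and 3990 to 5890 when each library was left out. Of the calls 49.0% were higher, against 38.8% on the log2(TPM + 1) scale. The DNM1 log2 fold change ran from -0.2049 to -0.0373 when each library was left out and passed the test only without shDNM1 replicate 1 (adjusted p = 0.0399). With CPM not divided by length, the difference in share of the beta sum was 0.377 percentage points for TUBB3, -2.12 for TUBB4B and 2.58 for TUBB6, against 0.200, -2.81 and 3.20.

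With the replicate number as a block, 6080 genes were called, 6 isotypes were higher and 1 lower, 1 of the 4 autoregulation genes was higher and 1 of the 11 severing enzymes and depolymerases was lower. Same-numbered libraries correlated in their deviations from the group means at 0.222, 0.195 and -0.0657 for replicates 1, 2 and 3. Replicates 1 and 2 correlated best with their own number, and replicate 3 did not. These few libraries cannot settle whether same-numbered libraries were paired. TUBB3, with 20 to 111 counts in a library, is the isotype that depth limits most.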
